A study of Mus musculus with 8 samples.

Results

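Kv3 potassium channels are the channels of fast spiking, and their genes Kcnc1, Kcnc2 and Kcnc4 were followed in RNA, labelled as from neurons, of mice short of the sodium channel NaV1.2. The genes were taken by name: 3 rows of the 54446 genes in the deposited count table, with symbols from GENCODE mouse release M21. The HOM group is 4 samples of Scn2agt/gt genotype, with both copies of Scn2a gene-trapped, and the WT group is 4 samples from their wild-type littermates. All are labelled strain C75BL6 and came from heterozygous breeding pairs kept in cages of mixed genotype, with no drug treatment. Such a trap inserts a cassette that interrupts the gene, here through the germline and not in a chosen cell type. The series title calls the mice adult. The sources used here give no exact age, sex or brain region. They also do not say whether the samples stand for separate animals, and the p-values cover only the spread between the samples as deposited.

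Kv3 channels open when a neuron is strongly depolarized and close quickly once it repolarizes. This keeps action potentials brief and lets a cell fire again within a short time. Kcnc1 encodes Kv3.1 and Kcnc2 encodes Kv3.2, slowly inactivating subunits known from parvalbumin-positive fast-spiking interneurons of cortex, striatum and hippocampus. Kcnc4 encodes Kv3.4, a fast inactivating subunit known from axons and presynaptic terminals. The subunits assemble into tetramers and can mix. In bulk RNA, fewer cells of a type and less RNA per cell cannot be told apart, so a lower value of an interneuron gene can be either.

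The 3 genes are related but separable by sequence. The codons around the potassium selectivity filter, the part of the pore that passes potassium and keeps sodium out, are shown because they are among the best-kept parts of the family. The stretches come from the longest annotated coding sequence of each gene in the GENCODE transcripts (GRCm38), with capitals where all 3 genes carry the same base.
Kcnc1: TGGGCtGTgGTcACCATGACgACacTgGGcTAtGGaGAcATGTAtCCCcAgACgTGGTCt
Kcnc2: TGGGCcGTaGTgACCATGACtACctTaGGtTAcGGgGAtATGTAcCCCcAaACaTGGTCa
Kcnc4: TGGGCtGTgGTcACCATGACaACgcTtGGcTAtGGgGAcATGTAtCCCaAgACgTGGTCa
Even here 44 of 60 bases were shared by all 3 genes. Over aligned coding bases the identity was taken by pair, a measure that cannot be set against that count over 3 genes. It was 74.6% between Kcnc2 and Kcnc1, 74.8% between Kcnc4 and Kcnc1 and 72.6% between Kcnc4 and Kcnc2. The annotated transcripts of these genes had 0 words of 50 bases in common in any pair, so a read stretch of that length inside 1 of them does not match another exactly.

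The upstream sequences of Kcnc1 and Kcnc2 differ in composition, and both are printed because the transcription of Kcnc1 is known in rat to use a promoter with a cyclic AMP response element and GC boxes. Each is the 250 bases before a RefSeq transcription start (GRCm38.p6), on the plus strand, and the Kcnc2 window belongs to its most upstream start. Capitals mark the core of a cyclic AMP response element (TGACG) or a GC box (GGGCGG), searched on both strands.
Kcnc1, chr7:46396218-46396467: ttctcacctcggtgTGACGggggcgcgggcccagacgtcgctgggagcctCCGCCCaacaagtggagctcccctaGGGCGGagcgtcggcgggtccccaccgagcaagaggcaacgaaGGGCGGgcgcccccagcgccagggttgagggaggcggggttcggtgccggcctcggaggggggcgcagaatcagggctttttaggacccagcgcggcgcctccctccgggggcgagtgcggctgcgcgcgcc
Kcnc2, chr10:112269767-112270016: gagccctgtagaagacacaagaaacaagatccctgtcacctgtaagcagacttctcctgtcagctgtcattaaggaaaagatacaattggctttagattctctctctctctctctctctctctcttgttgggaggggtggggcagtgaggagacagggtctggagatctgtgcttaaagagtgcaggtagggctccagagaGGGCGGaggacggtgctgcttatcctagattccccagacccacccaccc
The Kcnc1 window was 74.4% G or C with 30 CpG pairs. The Kcnc2 window was 52.4% G or C with 2 CpG pairs, and the medians over 32841 such windows of the table were 52.4% and 6 pairs. The Kcnc1 window held 1 such core and 3 GC boxes, and the Kcnc2 window held 1 GC box and no core. The windows of 3 further RefSeq starts of Kcnc2, downstream of the printed one, had 4 to 5 CpG pairs and held 0 cores and 0 GC boxes. Of all windows, 17.8% held a core and 32.7% a GC box. A full element (TGACGTCA, in 1.55% of windows), an AP-1 site (TGANTCA, 6.75%), an EGR site (GCGNGGGCG, 4.70%) and a TATA box (TATAAA, 12.4%) were not found as written in either window. The RefSeq window of Kcnc4 lies inside an exon of the GENCODE model and is not shown; it was 68.0% G or C with 12 CpG pairs and held 1 core and 1 GC box. These matches describe letters and do not show binding.

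The libraries held 27993412 to 37538988 counts each. Scn2a, the trapped gene, stood at 112 to 147 CPM in HOM libraries and 371 to 477 CPM in WT libraries, where CPM is a count scaled to the size of its library by the trimmed-mean (TMM) method. Scn2a fell to 29.4% of the WT level (-1.77 on the log2 scale, SE 0.10, adjusted p = 1.16e-05 by edgeR). The labels call the RNA source neuron, but markers of oligodendrocytes summed to 3145 to 3847 CPM in HOM and 3651 to 5483 CPM in WT, so oligodendrocyte RNA was present. Choroid plexus markers (9 genes, 1 of them at 0 in all libraries) summed to 17.7 to 234 CPM in HOM and 146 to 1716 CPM in WT, highest in WT replicate 4. Of the 8 tested 4 fell, a count that was 0 without HOM replicates 2, 3 or 4 or WT replicates 1 or 4, 3 without HOM replicate 1 or WT replicate 3, and 5 without WT replicate 2, each left out alone. It was 1 with limma-voom, 0 with robust quasi-likelihood and 8 with no filter. Cerebellar neuron markers (6 genes, 2 at 0) summed to 2.81 to 12.1 CPM in HOM and 0.857 to 2.38 CPM in WT, highest in HOM replicate 1. HOM replicate 4 held 2 counts over 4 Y-linked genes and the other libraries 4452 to 5984.

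Of the Kv3 genes 0 of 3 passed the test across all genes, and their HOM levels were estimated at 86.4% to 90.6% of WT. Over all 17395 genes tested with edgeR's quasi-likelihood test, 5.40% passed a Benjamini-Hochberg adjusted p of 0.05, 2.94% with lower and 2.47% with higher values in HOM. Unadjusted, 22.9% of all genes had a p under 0.05, and of the Kv3 genes Kcnc1 alone did. The estimate was below 0 for 3 of 3 Kv3 genes and for 49.8% of all genes tested, and the median over all genes was 0.00.

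Kcnc1 (ENSMUSG00000058975) lies on the plus strand of chromosome 7, from 46396497 to 46438704 in GRCm38, and no other annotated gene overlaps it. It had 250.5, 244.8, 258.3 and 245.9 CPM in HOM replicates 1 to 4, against 284.6, 313.7, 277.9 and 273.2 CPM in WT replicates 1 to 4. All 4 HOM libraries lay below all 4 WT libraries, and the HOM libraries lay close together, with 249.9 ± 6.15 CPM in HOM and 287.4 ± 18.2 CPM in WT (SD, n = 4 each). Of all genes tested, 14.1% had no overlap between genotypes, and 7.47% had none with HOM the lower. The HOM level was 86.9% of the WT level, with a 95% interval from 79.1% to 95.5%. The log2 fold change was -0.20 (SE 0.06), with an unadjusted p of 0.00711 and an adjusted p of 0.0790 (edgeR), which missed the threshold. On log2 CPM, an exact permutation test (two-sided) gave p = 0.0286, the smallest value that 70 relabellings allow. DESeq2 put it past the threshold (-0.20, adjusted p = 0.0303), and none of the other 18 alternatives did.

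Kcnc2 (ENSMUSG00000035681) lies on the plus strand of chromosome 10, from 112271121 to 112467024, a span of 195904 bases of which 3.64% is exonic. It had 133.5, 142.2, 130.8 and 101.5 CPM in HOM replicates 1 to 4, against 158.3, 136.2, 153.6 and 139.4 CPM in WT replicates 1 to 4. HOM replicate 4 was the lowest library, HOM replicate 2 lay among the WT values, and the genotypes overlapped. The means were 127.0 ± 17.7 CPM in HOM and 146.9 ± 10.7 CPM in WT (SD, n = 4 each). The HOM level was 86.4% of the WT level (95% interval 74.7% to 100.0%; log2 fold change -0.21, SE 0.10, edgeR adjusted p = 0.221; exact permutation p = 0.114). Without HOM replicate 4, the library with almost no Y-linked counts, the log2 fold change was -0.10 (edgeR adjusted p = 0.453).

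Kcnc4 (ENSMUSG00000027895) lies on the minus strand of chromosome 3, from 107438303 to 107459552. It had 105.4, 99.23, 102.7 and 100.8 CPM in HOM replicates 1 to 4, against 119.1, 122.2, 110.2 and 99.04 CPM in WT replicates 1 to 4. The HOM libraries were tight and WT replicate 4, in which choroid plexus markers were highest, lay below all of them, so the genotypes overlapped. The means were 102.0 ± 2.66 CPM in HOM and 112.6 ± 10.4 CPM in WT (SD, n = 4 each). The HOM level was 90.6% of the WT level (95% interval 81.4% to 101%; log2 fold change -0.14, SE 0.07, edgeR adjusted p = 0.256; exact permutation p = 0.143). The log2 fold change was -0.20 without WT replicate 4 (edgeR adjusted p = 0.127). With library totals in place of TMM scaling it was -0.08 (edgeR adjusted p = 0.545), a setting that moved the median of all genes to 0.07.

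**Figure D1:**
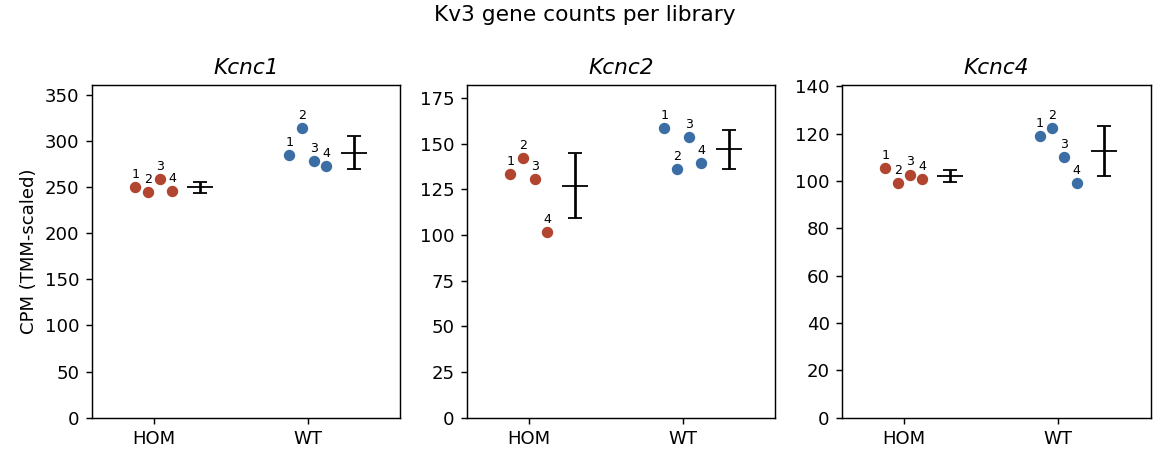
TMM-scaled CPM of Kcnc1, Kcnc2 and Kcnc4 in each library, HOM left and WT right, with replicate numbers beside the points and the mean with SD (n = 4) as a bar. Kcnc1 is between 244.8 and 258.3 CPM in HOM, under the lowest WT library at 273.2 CPM, whereas the genotypes overlap for Kcnc2 and Kcnc4.

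The order of the Kv3 genes by level depended on the length used to scale them. Per kb of exonic length, Kcnc4 stood at 27.8 ± 0.724 CPM per kb in HOM and 30.7 ± 2.83 in WT, and Kcnc1 at 26.4 ± 0.650 in HOM and 30.4 ± 1.92 in WT (SD, n = 4 each). These neighbours overlapped in both genotypes. Kcnc2 was lowest, at 17.8 ± 2.48 CPM per kb in HOM and 20.6 ± 1.5 in WT, with no library of it reaching the lowest value of Kcnc1 or Kcnc4. Per kb of gene span, introns included, the order was Kcnc1 (5.92 ± 0.146 in HOM and 6.81 ± 0.431 in WT), Kcnc4 (4.80 ± 0.125 and 5.30 ± 0.488) and Kcnc2 (0.648 ± 0.0903 and 0.750 ± 0.0548). Both scales are given because the deposited counts appear to include intronic reads. Among the exonic-length levels of these 3 genes together, Kcnc1 made up 36.7% ± 1.32 in HOM and 37.2% ± 1.56 in WT. Kcnc2 made up 24.6% ± 2.65 in HOM and 25.2% ± 1.98 in WT, and Kcnc4 38.7% ± 1.48 in HOM and 37.5% ± 1.38 in WT, so the make-up of the 3 overlapped between genotypes.

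**Figure D2:**
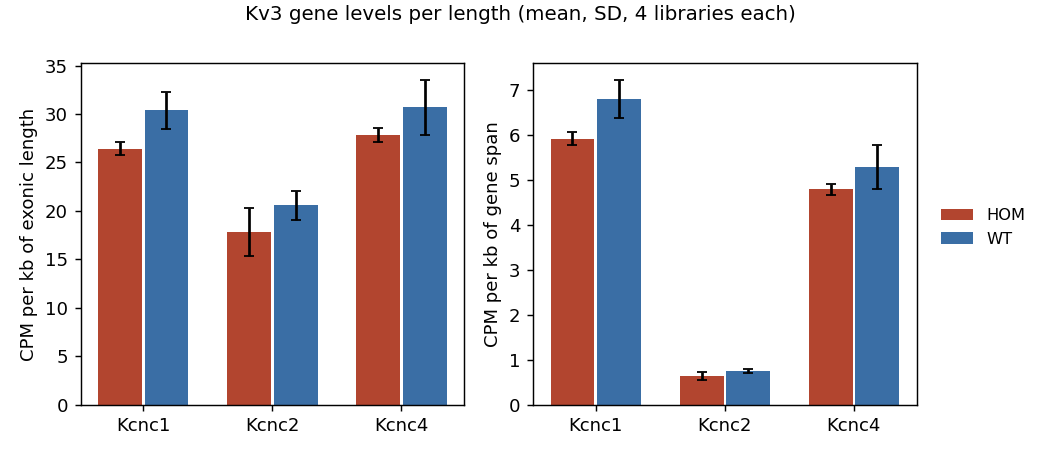
Mean level of each Kv3 gene in CPM per kb of exonic length (left) and of gene span (right), HOM bars left of WT bars, with SD over 4 libraries. Kcnc4 and Kcnc1 overlap per exonic kb, and Kcnc2 drops to 0.648 CPM per kb in HOM and 0.750 in WT per kb of span.

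Whether the Kv3 genes changed by different amounts was asked through their ratio within each library, where library scaling cancels. Each of the 3 pairs was given an exact permutation test, two-sided, with p adjusted over the pairs. The log2 ratio of Kcnc4 to Kcnc1 was -1.29 ± 0.03 in HOM and -1.35 ± 0.09 in WT (SD, n = 4 each), a difference of 0.06 (exact permutation test, adjusted p = 0.6). Shifts from -0.07 to 0.22 are not rejected by that test. For Kcnc2 to Kcnc1 the log2 ratio was -0.99 ± 0.21 in HOM and -0.97 ± 0.17 in WT, a difference of -0.02 (exact permutation test, adjusted p = 0.8, shifts from -0.43 to 0.42 not rejected). For Kcnc4 to Kcnc2 it was -0.30 ± 0.21 in HOM and -0.38 ± 0.16 in WT, a difference of 0.08 (exact permutation test, adjusted p = 0.8, shifts from -0.36 to 0.48 not rejected). Ratios with Kcnc2 were widely spread among libraries of 1 genotype. Both of these signs turned without HOM replicate 4 (0.08 for Kcnc2 to Kcnc1 and -0.02 for Kcnc4 to Kcnc2).

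**Figure D3:**
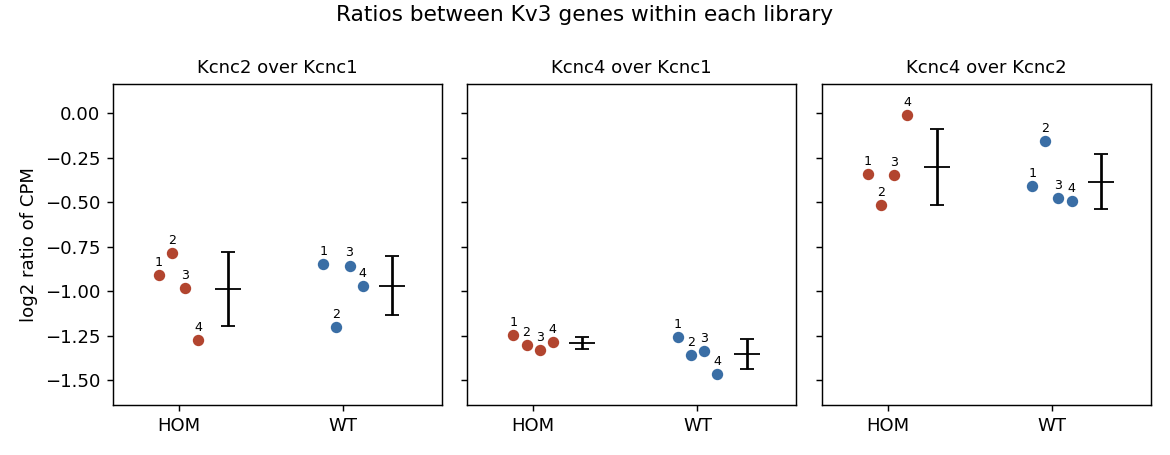
Log2 ratio of CPM for each pair of Kv3 genes in each library, HOM left and WT right, with replicate numbers and the mean with SD (n = 4). Kcnc4 over Kcnc1 lies between -1.33 and -1.25 in HOM and -1.46 and -1.26 in WT, and the pairs with Kcnc2 spread more widely.

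Across libraries Kcnc1 and Kcnc4 kept closer company than either did with Kcnc2. The Pearson correlation of log2 CPM over the 8 libraries was 0.84 for Kcnc4 with Kcnc1 and 0.76 after the mean of each genotype was taken out. It was 0.47 and -0.12 for Kcnc2 with Kcnc1, and 0.44 and 0.11 for Kcnc4 with Kcnc2. These are descriptions over libraries that share their scaling, given without a test. Kcnc2 instead followed the share of protein-coding counts that fell in the 2350 genes spanning over 100 kb, of which it is one. That share was 25.5%, 25.7%, 24.9% and 23.0% in HOM replicates 1 to 4 and 26.0%, 23.5%, 25.0% and 23.6% in WT replicates 1 to 4. Within each genotype the 4 libraries stood in the same order by this share and by Kcnc2, an order noticed after the values were seen, and its part in the Kcnc2 result was not tested.

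**Figure D4:**
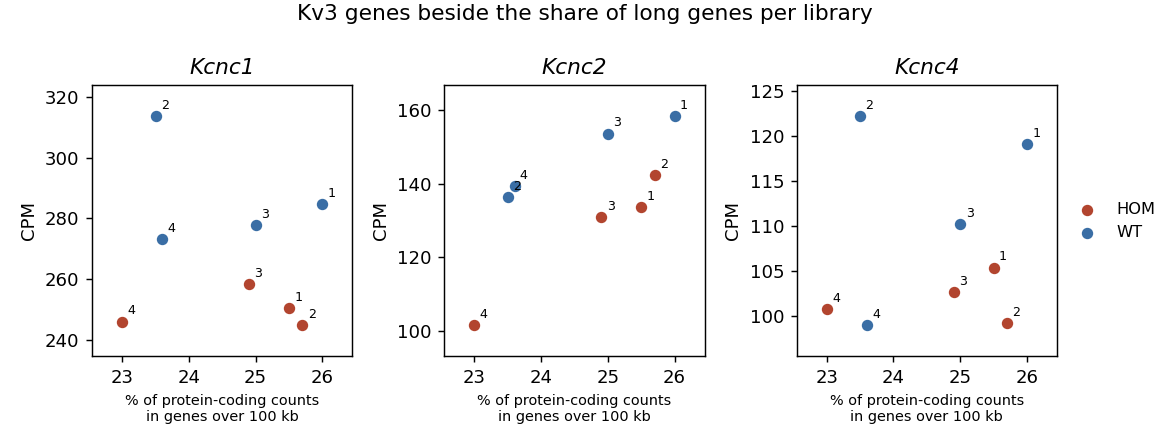
CPM of each Kv3 gene against the percent of protein-coding counts in genes spanning over 100 kb, with HOM in red, WT in blue and replicate numbers beside the points; the axes do not start at 0. Kcnc2 climbs with this share within each genotype, to 142.2 CPM in HOM replicate 2 and 158.3 CPM in WT replicate 1, and Kcnc1 and Kcnc4 do not.

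The genes most like each Kv3 gene were the 5 of highest Pearson correlation over the 8 libraries among 13409 other protein-coding genes with a mean of at least 1 CPM. For Kcnc1 they were the chemokine gene Cxcl12 (r = 0.969, and 0.872 within genotype), Lrrc59 (0.967 and 0.867), the Nogo receptor partner gene Lingo1 (0.966 and 0.893), Slc45a4 (0.963 and 0.934) and Mpp3 (0.960 and 0.833). Of these, Lingo1 (log2 fold change -0.30, edgeR adjusted p = 0.0489) and Mpp3 (-0.27, 0.0394) passed the test across all genes. The 5 were chosen over both genotypes by likeness to Kcnc1, whose HOM values all lay below its WT values. That choice favours genes lower in HOM, so these passes are not separate evidence. For Kcnc2 the most like genes were Adnp2 (r = 0.991), Oxr1 (0.986), Vps13d (0.981), the splicing factor gene Nova1 (0.980) and Hectd2 (0.980). None of these passed. The spans of Oxr1, Vps13d and Nova1 are 414, 222 and 124 kb, and those of Adnp2 and Hectd2 are 25.2 and 66.5 kb. For Kcnc4 they were the tubulin gene Tuba8 (0.957), Htatip2 (0.945), Wnt9a (0.940), Rap1gap2 (0.937) and Neurl1b (0.937), none of which passed. Long genes were also among those like the other members, with Lingo1 (for Kcnc1) spanning 178 kb and Rap1gap2 (for Kcnc4) 228 kb. These likenesses are descriptions over 8 libraries, without a test.

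Genes whose products act on Kv3 channels did not pass the test either. Of 10 partner genes 8 were tested, 0 rose and 0 fell, and their median log2 fold change was -0.10. Kcne3, the MiRP2 subunit that assembles with Kv3.4 in skeletal muscle, was at 0 in all libraries. Of 1280 protein-coding genes nested in another gene, 1261 were at 0, so a 0 here need not mean a silent gene. Kcne1, an accessory subunit known best from heart, had 29 counts in all. Kcne2, also an accessory subunit, stood at 0.730 ± 0.406 CPM in HOM and 4.02 ± 4.70 CPM in WT (SD, n = 4 each; log2 fold change -2.45, edgeR adjusted p = 0.0617). Kcne2 is known from choroid plexus, whose markers were lower in HOM as given above, and their part in this value was not tested. Fmr1, whose RNA-binding protein FMRP binds Kcnc1 mRNA, stood at 73.8 ± 5.60 CPM in HOM and 86.1 ± 8.36 CPM in WT (-0.22, edgeR adjusted p = 0.132). The casein kinase 2 genes Csnk2a1 (-0.13) and Csnk2a2 (-0.06), whose enzyme phosphorylates Kv3.1, and the kinesin gene Kif5b (-0.13), whose motor carries Kv3.1 along axons, were among those that did not pass. Ank3, whose product ankyrin-G binds Kv3.1, had a log2 fold change of -0.05 (SE 0.09). Unadjusted, 2 of the 8 had an edgeR p under 0.05 (Kcne2 and Fmr1), near the 22.9% of all genes tested that did. The number of lower partner genes was 1 with DESeq2 and 2 without WT replicate 2, where 1054 and 597 of all genes were lower.

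Channels known to work beside Kv3 in fast-spiking cells were all estimated lower in HOM. Of 5 such genes 3 fell and 0 rose, with a median log2 fold change of -0.52. Kcna1, a low-threshold Kv1 subunit of axons, had 50.02, 74.53, 58.00 and 45.64 CPM in HOM replicates 1 to 4, against 93.26, 82.61, 88.80 and 77.80 CPM in WT replicates 1 to 4 (-0.59, SE 0.13, edgeR adjusted p = 0.0258). Kcna2, its usual partner subunit, averaged 232.8 ± 31.6 CPM in HOM and 333.6 ± 30.0 CPM in WT (-0.52, edgeR adjusted p = 0.0153). Scn1a, the NaV1.1 sodium channel gene of parvalbumin interneurons, fell as well (-0.54, edgeR adjusted p = 0.0439). Scn4b, a sodium channel subunit linked to resurgent current (-0.42), and Scn8a (-0.17) did not pass. The genotypes did not overlap for Kcna1, Kcna2, Scn1a or Scn4b, and they overlapped for Scn8a. Of all genes tested, 7.47% had no overlap with HOM the lower, and 2.94% passed with lower values in HOM. The number that fell was 0, 4, 0 and 1 without HOM replicates 1 to 4, and 1, 3, 0 and 2 without WT replicates 1 to 4, each left out alone. Without HOM replicate 4, Kcna1 (-0.48, edgeR adjusted p = 0.0512) and Scn1a (-0.40, 0.0655) missed the threshold. With choroid plexus level as a covariate 0 passed, at estimates no smaller but with wider errors: -0.81 (SE 0.19) for Kcna1, -0.69 (SE 0.14) for Kcna2 and -0.67 (SE 0.21) for Scn1a. Whether these genes changed more than the Kv3 genes was not tested.

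Markers of the cells that use Kv3 most were mixed. Of 10 parvalbumin interneuron markers 9 were tested and 0 passed, with 5 estimates below 0 and a median of -0.04. Cox6a2 was at 0 in all libraries, which need not mean a silent gene, as given for Kcne3. Pvalb, the calcium buffer that names these cells, had 32.15, 26.78, 29.05 and 33.22 CPM in HOM replicates 1 to 4, against 27.55, 40.05, 36.93 and 39.61 CPM in WT replicates 1 to 4 (log2 fold change -0.25, edgeR adjusted p = 0.229). WT replicate 1 lay among the HOM values. Syt2, a fast calcium sensor of their terminals, averaged 56.4 ± 5.07 CPM in HOM and 69.1 ± 6.69 CPM in WT (-0.29, edgeR adjusted p = 0.0656), and Kcns3, a modulatory Kv9 subunit known from the same cells, 6.19 ± 1.58 CPM in HOM and 8.54 ± 0.467 CPM in WT (-0.47, edgeR adjusted p = 0.0907). The developmental regulator Lhx6 (-0.09), the transcription factor gene Sox6 (0.03), the neuregulin receptor gene Erbb4 (-0.04) and Btbd11 (0.005) had estimates near 0. Vwc2 (0.166, edgeR adjusted p = 0.237) and Nxph1 (0.126, 0.412) were estimated higher in HOM. Unadjusted, 2 of the 9 (Syt2 and Kcns3) had an edgeR p under 0.05, near the 22.9% of all genes tested that did. DESeq2 called 2 members lower, as did edgeR without HOM replicate 2, and over all genes these settings called 1054 and 649 lower. The summed level of the list was 364 to 429 CPM in HOM and 402 to 441 CPM in WT.

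Of 6 GABAergic markers tested, 1 fell and 0 rose, with a median of -0.08. Among all genes tested, 2.94% passed with lower and 2.47% with higher values in HOM. Gad1, the main GABA-synthesizing enzyme gene, had 250.9, 257.2, 223.3 and 220.9 CPM in HOM replicates 1 to 4, against 312.7, 336.1, 335.0 and 343.7 CPM in WT replicates 1 to 4. The genotypes did not overlap, as was so for 7.47% of all genes tested with HOM the lower. Gad1 passed (-0.48, SE 0.07, edgeR adjusted p = 0.00457), also in each of the 8 removals of 1 library. With the choroid plexus covariate it missed the threshold at a similar estimate (-0.44, SE 0.11, edgeR adjusted p = 0.124), and part of its span overlaps another annotated gene. Gad2, another GABA-synthesizing enzyme gene (-0.24), and the vesicular transporter gene Slc32a1 (-0.10) did not pass, and without HOM replicate 2 the list had 2 lower members. Of 8 markers of other interneuron classes 3 fell, namely Lamp5 (-0.84, edgeR adjusted p = 3.09e-04), Reln (-0.50) and Npy (-0.55). The median of this list was -0.08, and 5 members did not pass. These were Sst (-0.098), Vip (-0.034), Cck (-0.065), Htr3a (-0.038) and Calb2 (0.247). Lamp5 and Reln passed in all 8 removals, and Npy in 4 of them (edgeR adjusted p from 0.0327 to 0.118 over the 8). With the choroid plexus covariate Lamp5 alone passed, and Reln (-0.45, SE 0.13, edgeR adjusted p = 0.18) and Npy (-0.71, SE 0.21, 0.163) did not. Npy also missed it with the replicate block (-0.54, edgeR adjusted p = 0.057). In the lists for other cells, Neurod6 of cortical excitatory neurons (-0.29), Aqp4 of astrocytes (-0.40) and Flt1 of endothelium (-0.47) fell, 1 of each list. With 1 library left out, the count was 0 in 7 of 8 removals for the excitatory list and in 6 of 8 for the astrocyte and endothelial lists. C1qa of microglia (0.44) rose, and so did Ppp1r17 of cerebellum (1.86), the latter near the floor with means of 0.551 CPM in HOM and 0.153 CPM in WT. C1qa passed at an edgeR adjusted p of 0.05 after rounding, and both counts were 0 in 6 of 8 removals. All 5 of these counts were 0 without HOM replicates 1, 3 or 4 or WT replicates 1 or 3, each left out alone, and with the choroid plexus covariate. Of 6 oligodendrocyte markers 0 passed with edgeR and 3 were lower with DESeq2, with 6 of 6 estimates below 0 and a median of -0.31. Of 8 striatal and 5 thalamic markers 0 passed (edgeR), and the thalamic markers summed to 58.0 to 79.9 CPM in HOM and 58.5 to 138 CPM in WT, highest in WT replicate 4. The choroid plexus markers that fell were Kl (-2.39), Aqp1 (-2.38), Slc4a5 (-3.20) and Cldn2 (-2.91). The part of these cells in the Kv3 values was not tested.

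Other voltage-gated potassium channel genes are set beside Kv3 by family. Of 35 listed, 31 were tested, 5 fell and 0 rose, with a median log2 fold change of -0.13. Of all genes tested, 2.94% passed with lower and 2.47% with higher values in HOM. The 3 Kv4 genes, of transient dendritic currents, had estimates from 0.04 to 0.15 (edgeR, none passed), and Kcnb2, a Kv2 delayed rectifier gene, had 0.09. The falls lay among Kv1 (Kcna1 and Kcna2, above) and the modulatory subunits Kcnv1 (-0.63), Kcng4 (-0.76) and Kcnf1 (-0.26), and Kcna6 had an estimate above 0 (0.29, edgeR adjusted p = 0.0640), though most of its span overlaps another gene. The count of lower genes was 1, 5, 1 and 3 without HOM replicates 1 to 4, and 3, 5, 2 and 4 without WT replicates 1 to 4. It was 9 with DESeq2, where 1054 of all genes were lower, and 0 with the choroid plexus covariate, where 27 were. Under that covariate the estimates were -0.63 (SE 0.14) for Kcnv1, -0.58 (SE 0.24) for Kcng4 and -0.22 (SE 0.11) for Kcnf1. With DESeq2, with library totals and without WT replicate 2, 1 Kv1 gene rose. Kcnf1 passed in none of the 8 removals, and Kcnv1 in all of them.

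**Figure D5:**
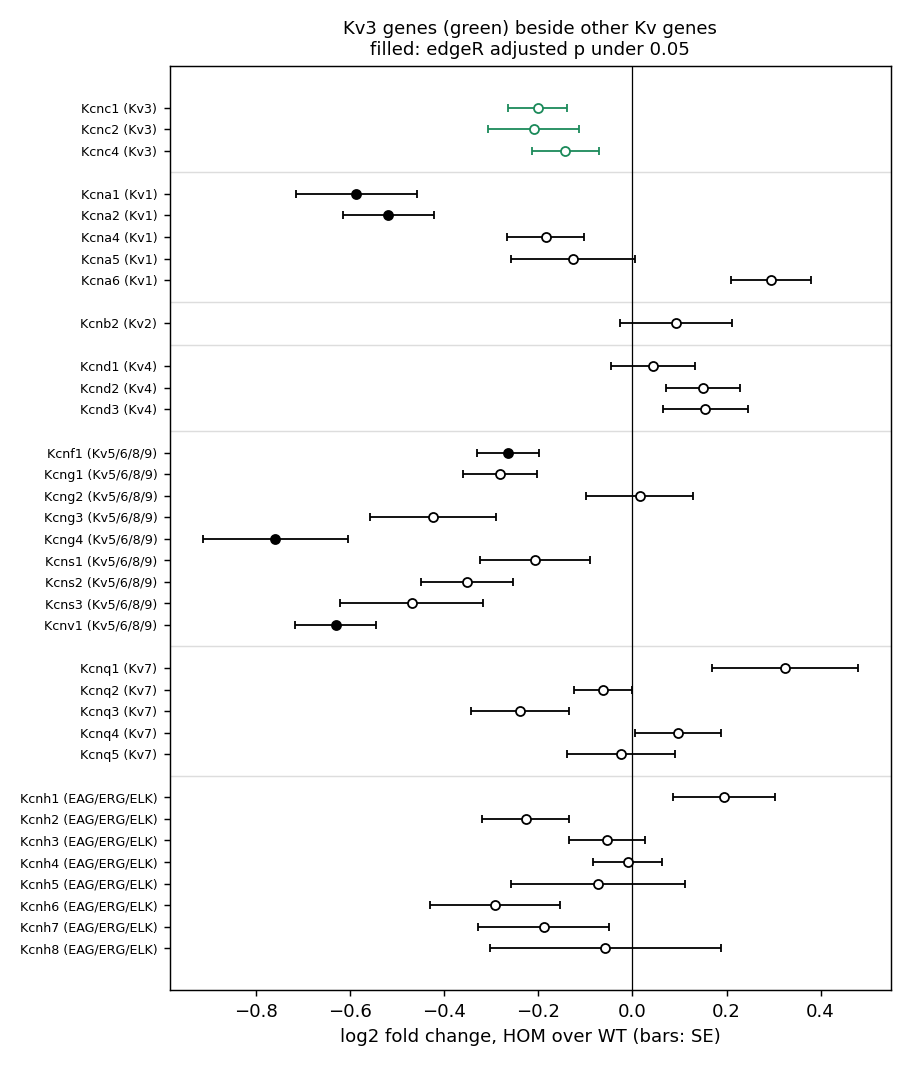
Log2 fold change, HOM over WT, of the 3 Kv3 genes (green) and 31 other voltage-gated potassium channel genes by family, with SE as bars; filled points have an edgeR adjusted p under 0.05. The Kv3 genes lie between -0.21 and -0.14, all unfilled, and the filled points are Kcna1, Kcna2, Kcnf1, Kcng4 and Kcnv1.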

How the data were processed

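RNA of 4 HOM and 4 WT samples was measured as paired-end reads of stranded TruSeq libraries, made from column-purified total RNA per the labels' protocols. The authors deposited 1 table of raw read counts, with no scaling, for 54446 Ensembl genes. The submitters' processing notes name GRCm38, FastQC 0.11.3, STAR, featureCounts and edgeR. Further versions, the gene annotation and how strand was handled were not given in the sources used here.

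GENCODE M21 matched 54409 of 54446 identifiers. Of 1280 protein-coding genes nested in another gene, 1261 were at 0, against 13.5% of the other 20638, which is why counts are taken to cover introns on both strands and nested genes such as Gfap to have no value. Counts were tested with edgeR 4.0.16 (R 4.3.3) by the quasi-likelihood test with TMM scaling and filterByExpr (about 10 counts in 4 libraries), adjusted over 17395 genes. Log2 CPM used a prior count of 2, and single values exact permutation tests over 70 relabellings. The test was checked on simulated data. No 2 libraries agreed within sampling noise (lowest chi-square per degree of freedom 7.03). Intervals are 95%.

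Members and lists were chosen with earlier results of these data known. Named genes are the Kv3 genes, Scn2a, list members past the threshold, up to 4 further members of smallest p from the partner, firing, interneuron and GABAergic lists, and the 5 genes most correlated with each Kv3 gene; others are named to give a list's values. One gene of the family and some list members are not reported here, and list counts leave them out. Alternatives were RLE and upper-quartile scaling, library totals, 2 other filters, DESeq2 1.42.0, limma-voom (limma 3.58.1), robust quasi-likelihood, a replicate block, a choroid plexus covariate and removal of libraries.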

Additional observations from a re-analysis of the deposited data

Results flagged for a closer look

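Of 34 sets of 4 libraries checked, 1 had a library far from the other 3 of its genotype. Chance gives about 1 in 20. The sets covered the Kv3 genes, their ratios, Scn2a, Gad1, Kcna1, Kcna2, Scn1a, Kcnf1, Kcng4, Kcnv1, Lamp5, Npy and Reln. Npy, a neuropeptide gene of interneurons, stood at 44.0 CPM in WT replicate 2, against 29.6 to 31.7 CPM in the other WT libraries. No Kv3 gene or ratio between Kv3 genes met this criterion. The other genes named above were not checked, so Npy need not be the only one. Among the unchecked genes, Kcne2 in WT replicate 4 stood well above the other libraries of its genotype. So did Kcns3 in HOM replicate 2 and Slc4a5 in HOM replicate 1.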

How the results depend on the processing

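Of 19 alternatives per Kv3 gene, all kept the direction of Kcnc1, Kcnc2 and Kcnc4, and 1 changed a call: Kcnc1 passed with DESeq2 (-0.199). With 1 library left out, the log2 fold change ran from -0.23 to -0.16 for Kcnc1, -0.26 to -0.10 for Kcnc2 and -0.20 to -0.10 for Kcnc4. Over all genes, the numbers higher and lower in HOM were 429 and 511, against 844 and 286 with library totals, 539 and 355 with upper-quartile scaling, 819 and 1054 with DESeq2, 11 and 27 with the choroid plexus covariate, and 135 and 200 without HOM replicate 4 and WT replicate 4 together. Leaving out 1 library gave 67 to 538 higher and 89 to 649 lower; without HOM replicates 1 and 3 in turn they were 88 and 124, and 91 and 89, without HOM replicate 4 they were 294 and 258, and without WT replicates 1, 3 and 4 in turn 265 and 262, 67 and 114, and 197 and 285. The cause was not tested.

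With the replicate block the counts were 169 higher and 195 lower, and the Kv3 log2 fold changes were -0.20, -0.22 and -0.14 for Kcnc1, Kcnc2 and Kcnc4. Deviations of libraries with the same number correlated at -0.196 to 0.047, and 0 of 4 correlated best with their own number. No pairing by number was seen, though so few libraries cannot exclude it. Paired sign flips of the ratios gave exact permutation adjusted p of 0.375 to 0.875.

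With 1 library left out, the genotype difference in log2 ratio ran from -0.097 to 0.078 for Kcnc2 to Kcnc1 (0.023 and 0.019 without WT replicates 1 and 3), -0.018 to 0.156 for Kcnc4 to Kcnc2 and 0.025 to 0.094 for Kcnc4 to Kcnc1. By span in place of exonic length, the log2 level of Kcnc4 over Kcnc1 was -0.334, against 0.043. Kcnc2 over Kcnc1 was -3.187 and Kcnc4 over Kcnc2 2.853. The Kv3 genes had 2824 to 10524 counts per library. Their SD as a percent of the mean was 2.46%, 13.9% and 2.60% in HOM for Kcnc1, Kcnc2 and Kcnc4. In WT it was 6.33%, 7.31% and 9.21%. The part of counting error in this spread was not tested.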
